A study of Mus musculus with 16 samples.

Results

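The 51 genes described here are regulators and products of lineages other than the neural one, out of 21887 protein-coding genes of the mouse annotation. They were taken by name: 23 transcription factors of endoderm, heart, muscle, mesoderm, blood, pluripotent cells and trophoblast, and 28 effector genes, the structural, receptor and enzyme genes of blood, vessel, mural, mesenchymal and liver cells. Each was examined over its annotated GRCm38 span with 5 kb added on both sides, called its window, for enriched regions (islands) of histone marks. The study concerns SETD5, a chromatin protein to which the series title ascribes methylation of lysine 36 on histone H3, in brain development.

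The samples were neural stem cells of mouse embryos at E14.5, taken from the cortex of the telencephalon, expanded as neurospheres with growth factors and plated on Matrigel before fixation. Cells were wild type or Setd5+/-, meaning heterozygous for a Setd5 mutation, and chromatin immunoprecipitation with sequencing (ChIP-seq) gave 1 island list per genotype for each of 6 histone marks. A further list holds SETD5-V5, a tagged SETD5, in wild-type cells, and no V5 library of untagged cells was used here. The labels name neither the Setd5 allele nor the mouse strain, and nothing says how many embryos or cultures stand behind a library. Every group has 1 library, so all differences between genotypes are values of these libraries, with no test and no p-value.

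Trimethylation of histone H3 lysine 27 (H3K27me3) is deposited by the Polycomb repressive complex and typically covers, in broad domains, the CpG-rich promoters of developmental regulators that a cell type does not use. H3K4me3 marks promoters and H3K27ac marks active promoters and enhancers. A locus with both H3K4me3 and H3K27me3 is called bivalent, a state best known from embryonic stem cells, whereas many tissue-specific effector genes have CpG-poor promoters that stay without either mark where they are silent. A window was accordingly called bivalent with H3K27me3 and H3K4me3, H3K27me3 with that mark and no H3K4me3, active with H3K4me3 or H3K27ac and no H3K27me3, and unmarked with none of the 3. An island anywhere in the window counted, so the active state includes islands that belong to a neighbouring gene. Reads are those of the whole island, also where it extends past the window.

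All 11 neural stem cell markers examined (Nes, Sox2, Pax6, Vim, Fabp7, Slc1a3, Hes1, Hes5, Notch1, Sox9 and Msi1) were active in both genotypes, with 4.8 to 10.2 kb of H3K4me3 per window in wild type and none with H3K27me3. Island reads per library were 1019278 at the lowest and 5093126 at the highest, with 2297833 in the wild-type and 1398086 in the Setd5+/- H3K27me3 library. The Setd5+/- libraries differed from wild type by chromosome: H3K27me3 on chromosome 1 covered 3.10 Mb in wild type against 7.39 Mb in Setd5+/- cells, with 2.31 and 2.88 Mb on chromosome 4, 1.62 and 2.23 Mb on chromosome 15, 22.2 and 6.71 Mb on the X, and 35.2 and 27.9 Mb on the other autosomes. Members on chromosomes 1, 4 and X are named as such below, and none lies on chromosome 15.

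In wild-type cells the transcription factors and the effectors stood in different states. H3K27me3 was present at 15 of the 23 factors, 65.2%, and at 4 of the 28 effectors, 14.3%, where 17.0% of all protein-coding genes had it. The factors comprised 11 in the H3K27me3 state, 4 bivalent, 6 active and 2 unmarked, and the effectors 2, 2, 12 and 12. Over all genes the shares were 5.01% H3K27me3, 12.0% bivalent, 56.3% active and 26.6% unmarked. The factors thus held the H3K27me3 state without H3K4me3 above the share of all genes, while the active state was below the share of all genes in both classes. The effectors, with fewer H3K27me3 windows, had the longer ones, with a median of 34.6 kb against 17.4 kb for the factors. In Setd5+/- cells H3K27me3 was present at 12 factors and 8 effectors, against 15.0% of all genes. There the factors comprised 11 in the H3K27me3 state, 1 bivalent, 4 active and 7 unmarked, and the effectors 5, 3, 9 and 11, beside 5.51%, 9.49%, 57.4% and 27.6% of all genes. Without chromosomes 1, 4, 15 and X, 13 factors in wild type against 11 in Setd5+/- cells had H3K27me3, and 3 and 5 effectors. Of all genes outside those chromosomes, 14.8% in wild type and 12.4% in Setd5+/- cells had it. Counting islands within 1 kb of a gene end alone, 12 and 11 factors and 2 and 2 effectors had it. The share of all genes by that rule was not counted.

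**Figure D1:**
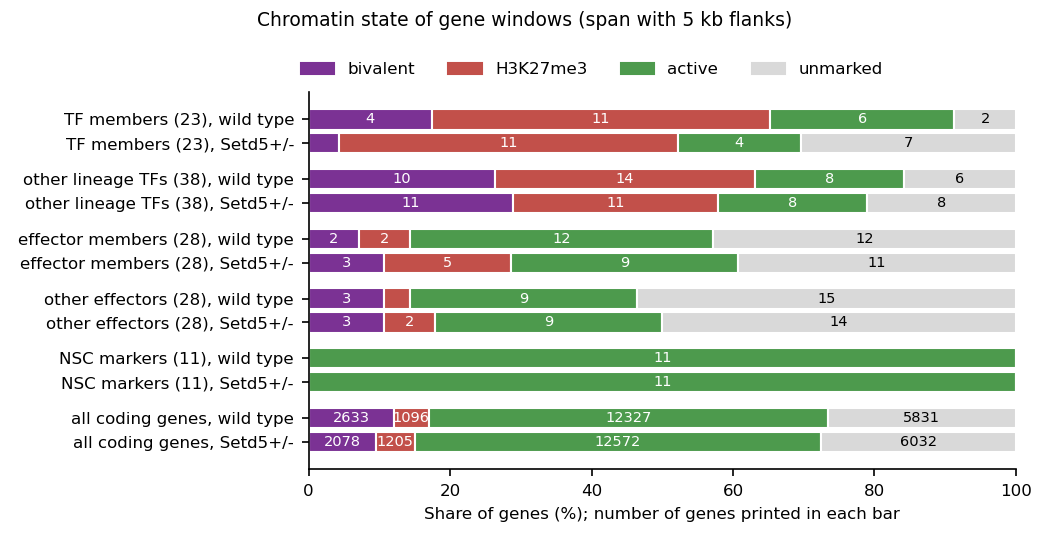
Share of genes in each chromatin state in wild-type and Setd5+/- cells, with 1 library per mark and genotype. Bars show the factor members and the effector members apart. Further lineage factors and effectors that are not members, neural stem cell markers and all protein-coding genes are shown beside them. H3K27me3 and bivalent states gather among the transcription factors, 15 of 23 in wild type, where 17.0% of all genes had H3K27me3. Unmarked in wild type were 2 of 23 factors and 12 of 28 effectors, beside 26.6% of all genes. In Setd5+/- cells 7 factors and 11 effectors were unmarked, beside 27.6%.

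By lineage, H3K27me3 in wild type covered 5 of 6 endoderm and gut factors, 8 of 10 heart, muscle and mesoderm factors, 2 of 4 pluripotency and trophoblast factors and none of the 3 blood factors. Among the effectors it was present at 3 of 11 blood genes and 1 of 7 vessel genes, and at none of the 4 mural genes, the 5 mesenchymal genes or Alb, the serum albumin gene of the liver. In Setd5+/- cells the count was 5 for the endoderm and gut factors, 5 for the heart, muscle and mesoderm factors and 2 for the pluripotency and trophoblast factors. For the effectors it was 3 blood, 1 vessel, 2 mural and 2 mesenchymal genes. The blood factors and Alb had no H3K27me3 there either.

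The longest coverage was at Gata4, a zinc-finger factor of heart and endoderm (chromosome 14, 63198914 to 63271712), with 51.4 kb of its 82.8 kb window in wild type against 43.2 kb in Setd5+/- cells. Wt1, a factor of kidney and mesothelium (chromosome 2, 105126529 to 105173614), had 34.9 and 30.5 kb. Gata6, a relative of Gata4, had 17.5 and 19.7 kb. These 3 loci held the most covered sequence among the members in wild type, and at none of them was the mark missing in either genotype.

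At Foxa1, Foxa2 and Nkx2-5 the mark spanned nearly the whole window in wild type and the islands ran on beyond it. Foxa1, a pioneer factor of gut endoderm (chromosome 12, 57540628 to 57548029), was covered over 17.0 kb in wild type against 16.0 kb in Setd5+/- cells, 97.7% and 92.0% of the window. Its relative Foxa2 (chromosome 2, 148042877 to 148046969) was covered over 13.7 and 14.1 kb, 97.2% and 100% of the window. Nkx2-5, a cardiac homeobox factor (chromosome 17, 26838664 to 26844988), lay wholly inside 1 wild-type island of 30.6 kb and 2756 reads, which also covered the neighbouring predicted gene Gm17382. Of that window 79.6% was covered in Setd5+/- cells, by 3 islands of 99, 486 and 497 reads.

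Pdx1, a regulator of pancreas, and Cdx2, a regulator of intestine and trophoblast, are neighbours on chromosome 5 (147270097 to 147275848 and 147300900 to 147307249). Pdx1 had 15.4 kb in wild type against 12.4 kb in Setd5+/- cells, and Cdx2 had 15.8 and 11.8 kb. Sox17, which specifies endoderm and arterial endothelium and lies on chromosome 1 (4490928 to 4497426), had 12.8 and 8.83 kb. All 3 were shorter in Setd5+/- cells, and Sox17 was so although the chromosome as a whole had 2.38 times the covered length there. Twist1, a basic helix-loop-helix factor of mesenchyme (chromosome 12, 33957671 to 33959831), had 12.2 and 9.96 kb.

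Pax7, described with the genotype differences below, had 16.2 kb in wild type and no island in Setd5+/- cells. The other 4 factors with the mark had short domains. Esrrb, an orphan nuclear receptor of pluripotent cells, had 3.6 and 3.4 kb, and Tfap2c, a factor of trophoblast and germ cells, 2.8 and 4.8 kb. Myod1, a muscle determination factor, had 3.6 kb in wild type and no island in Setd5+/- cells, and Tbx5, a T-box factor of heart and forelimb, had 1.4 kb and no island. No H3K27me3 island was called in either genotype at T (the mesoderm factor brachyury), Pou5f1 and Nanog (pluripotency factors), Hnf4a (liver), Spi1, Klf1 and Gata1 (blood) or Myf5 (muscle). The 8 factors without the mark thus include all 3 blood factors and the core pluripotency pair.

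**Figure D2:**
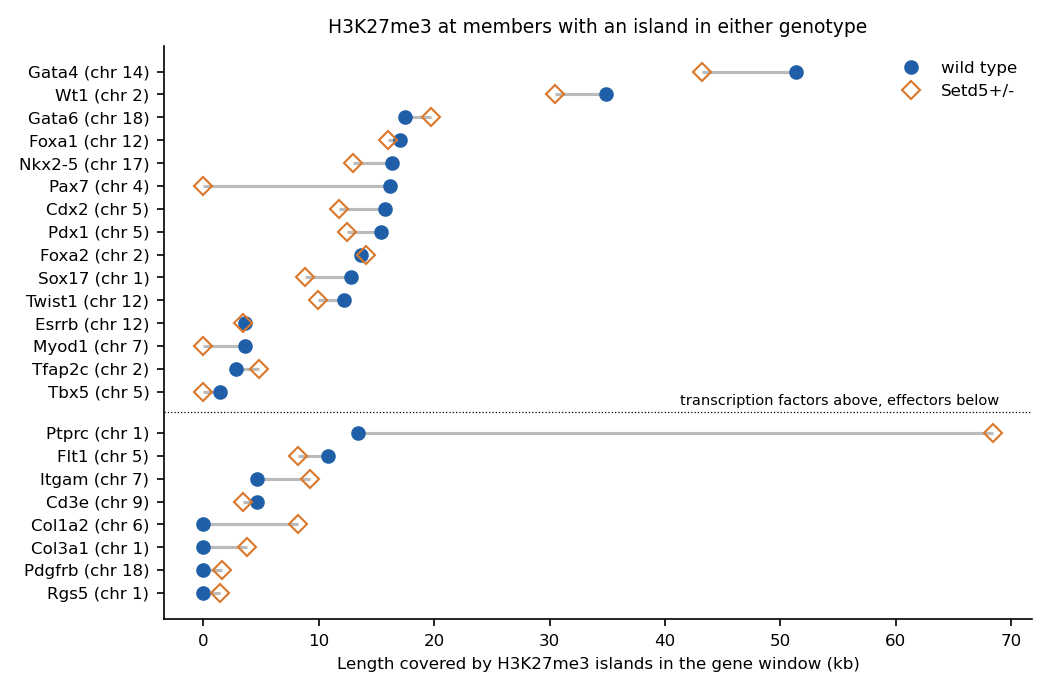
H3K27me3 covered length per member window in kb, wild type and Setd5+/-, for the 23 members with the mark in either genotype, 1 library per genotype. Most factors have 12.2 kb or more in wild type, while Ptprc stands apart with 13.4 kb in wild type against 68.4 kb in Setd5+/- cells.

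The islands at the factors were also among the densest of their list. Each member's island with the most reads was ranked by reads per kb among all islands of its library, so that a percentile of 90 means denser than 90% of them. In wild type the median percentile over the 15 factors was 99.0, with 12 of 15 at 90 or above. Their median density was 75.8 reads per kb and median width 15.8 kb, against 26.1 reads per kb and 2.4 kb over the whole list. The 12 factors in Setd5+/- cells had a median percentile of 96.6 and 41.6 reads per kb, against a list median of 25.0. The 4 effectors with H3K27me3 in wild type had a median percentile of 45.4, and 1 of them, Flt1, exceeded 90, at 98.8. The 8 in Setd5+/- cells had a median of 54.3, and again 1 exceeded 90, Ptprc at 99.9. The other effectors with the mark stood between 14.2 and 56.5 in wild type and between 13.8 and 83.4 in Setd5+/- cells.

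H3K4me3 at members was the reverse: weak by the standard of its own list. Of the 10 factors with H3K4me3 in wild type 8 lay below the median island, as did 11 of 14 effectors, with median percentiles of 37.0 and 31.1. The medians in Setd5+/- cells were 43.8 for 5 factors and 40.6 for 12 effectors. The 11 neural stem cell markers had a median percentile of 81.4 in wild type against 86.9 in Setd5+/- cells.

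**Figure D3:**
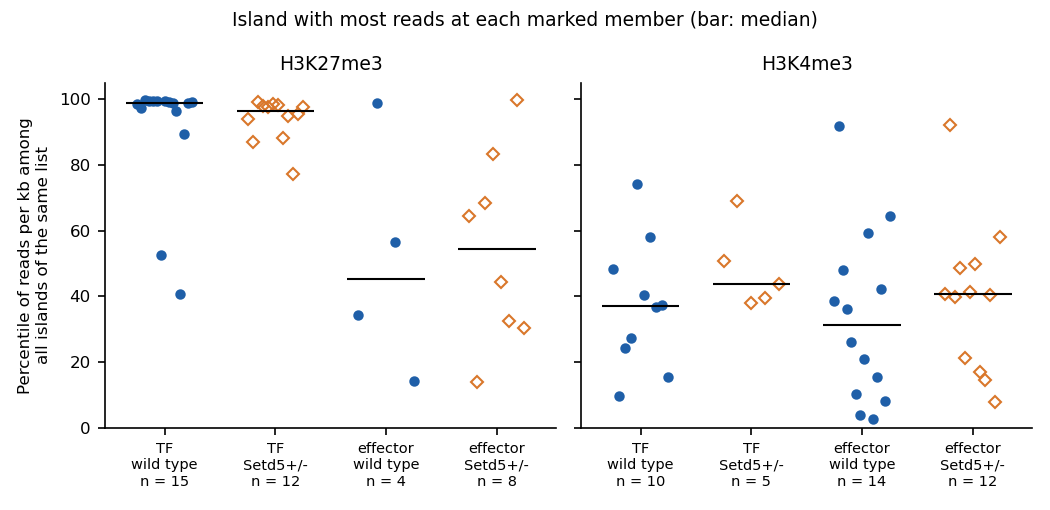
Percentile of each member's island with the most reads, by reads per kb within its own library's list, for H3K27me3 and H3K4me3 in each genotype, factors and effectors shown apart. Factor H3K27me3 islands sit at the top of their lists, with medians of 99.0 in wild type against 96.6 in Setd5+/- cells, and most H3K4me3 islands of members sit below 50.

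Promoter sequences show how the classes differ in CpG dinucleotides, a feature tied to Polycomb recruitment and H3K4me3 in mammals. A promoter sequence was matched for 32 of the 51 members, 15 factors and 17 effectors, in RefSeq GRCm38.p6. Below, the 250 bases before the transcription start are printed 5′ to 3′ on the gene's own strand with every CG in capitals, a motif that reads the same on both strands. Twist1 (chr12:33957421-33957670, plus strand) and Foxa1 (chr12:57546112-57546361, minus strand) are factors under H3K27me3. Pax7 (chr4:139832969-139833218, minus strand) is a factor with the mark in wild type alone. Flt1 (chr5:147726012-147726261, minus strand) is a bivalent effector, and Kdr (chr5:75978456-75978705, minus strand) an active one. Myf5 (chr10:107486135-107486384, minus strand) and Cx3cr1 (chr9:120068297-120068546, minus strand) are a factor and an effector with none of the marks.
Twist1: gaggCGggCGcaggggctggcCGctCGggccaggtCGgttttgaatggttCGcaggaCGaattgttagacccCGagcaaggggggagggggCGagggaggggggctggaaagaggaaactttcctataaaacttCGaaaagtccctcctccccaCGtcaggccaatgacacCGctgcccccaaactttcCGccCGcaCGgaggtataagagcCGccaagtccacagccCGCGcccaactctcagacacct
Foxa1: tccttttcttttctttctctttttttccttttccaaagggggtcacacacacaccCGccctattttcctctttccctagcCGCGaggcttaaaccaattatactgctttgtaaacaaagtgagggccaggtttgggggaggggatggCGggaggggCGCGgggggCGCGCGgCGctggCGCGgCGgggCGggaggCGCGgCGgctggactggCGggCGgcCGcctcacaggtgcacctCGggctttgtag
Pax7: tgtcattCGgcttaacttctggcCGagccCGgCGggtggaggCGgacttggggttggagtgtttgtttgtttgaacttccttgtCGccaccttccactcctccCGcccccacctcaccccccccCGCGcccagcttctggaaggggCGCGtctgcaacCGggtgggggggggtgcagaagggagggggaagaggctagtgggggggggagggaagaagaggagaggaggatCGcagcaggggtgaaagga
Flt1: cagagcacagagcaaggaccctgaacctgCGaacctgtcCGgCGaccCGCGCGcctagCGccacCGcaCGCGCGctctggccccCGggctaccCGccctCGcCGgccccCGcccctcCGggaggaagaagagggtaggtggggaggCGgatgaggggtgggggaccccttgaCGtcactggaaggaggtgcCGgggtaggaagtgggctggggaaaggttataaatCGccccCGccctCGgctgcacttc
Kdr: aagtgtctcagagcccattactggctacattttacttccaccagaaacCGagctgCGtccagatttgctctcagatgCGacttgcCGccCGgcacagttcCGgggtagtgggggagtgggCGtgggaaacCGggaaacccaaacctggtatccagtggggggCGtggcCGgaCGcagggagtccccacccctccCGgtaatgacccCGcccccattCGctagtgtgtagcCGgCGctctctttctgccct
Myf5: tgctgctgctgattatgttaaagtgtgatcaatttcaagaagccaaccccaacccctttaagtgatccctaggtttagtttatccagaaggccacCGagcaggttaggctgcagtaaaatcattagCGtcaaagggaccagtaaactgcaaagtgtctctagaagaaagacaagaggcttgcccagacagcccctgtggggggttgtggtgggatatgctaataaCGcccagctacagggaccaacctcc
Cx3cr1: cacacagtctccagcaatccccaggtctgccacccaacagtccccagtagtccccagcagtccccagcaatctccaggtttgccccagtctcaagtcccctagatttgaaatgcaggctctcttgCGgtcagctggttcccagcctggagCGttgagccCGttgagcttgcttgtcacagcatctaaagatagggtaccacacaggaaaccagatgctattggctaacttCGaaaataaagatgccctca

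The printed stretches hold 18 CG in Twist1, 21 in Foxa1, 13 in Pax7, 23 in Flt1 and 16 in Kdr, against 3 in Myf5 and 4 in Cx3cr1. H3K27me3 islands overlapped the promoter of Foxa1 in both genotypes and those of Twist1 and Pax7 in wild type only, whereas that of Flt1 had both H3K27me3 and H3K4me3 in both genotypes. At Flt1 the H3K4me3 islands reached only promoter bases after the start, outside the printed stretch. The Kdr promoter had H3K4me3 in both, and those of Myf5 and Cx3cr1 had no island of any list. These genes were chosen for printing after their values were seen, so their CG counts do not represent their states.

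The full promoters run from 250 bases before to 50 after the start. CpG content is given as the observed number of CG over the number expected from the C and G content, taking the highest promoter where a gene has several, and a promoter with a ratio of 0.6 or more and at least 50% G+C is called CpG-rich. The highest ratios among the factors were 0.93 at Foxa1, 0.83 at Twist1, 0.77 at Foxa2 and 0.73 at Cdx2, all in the H3K27me3 state. The 7 factors in that state with a sequence had a median of 0.73 and 4 were CpG-rich. The other CpG-rich members were Flt1 at 0.78, Kdr at 0.69 and T at 0.61. Kdr was the 1 CpG-rich gene among the 7 active effectors with a sequence, whose median was 0.27. In all 5 of 15 factors and 2 of 17 effectors were CpG-rich, with median ratios of 0.47 and 0.29. None of the 8 unmarked members with a sequence was CpG-rich.

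Over all 17492 genes with a promoter 48.2% were CpG-rich, and 94.6% of the 32851 promoters hold at least 1 CG. By wild-type state, 60.5% of bivalent, 19.4% of H3K27me3, 69.1% of active and 3.66% of unmarked genes were CpG-rich. Both classes of member were therefore below all genes, and active members differed from active genes in general: 2 of 12 were CpG-rich. Over the promoter itself, H3K27me3 lay at 8 of the 32 members in wild type (Cdx2, Flt1, Foxa1, Foxa2, Nkx2-5, Pax7, Pdx1 and Twist1) and at 4 in Setd5+/- cells (Flt1, Foxa1, Foxa2 and Nkx2-5). The same share over all promoters was not counted, so the 8 and 4 are not set against other genes. At Cdx2, Pdx1 and Twist1 the window kept the mark in Setd5+/- cells, and each promoter lay in a gap between 2 islands. At Pdx1 that gap was short, with islands ending at 147269800 and starting again at 147270201.

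**Figure D4:**
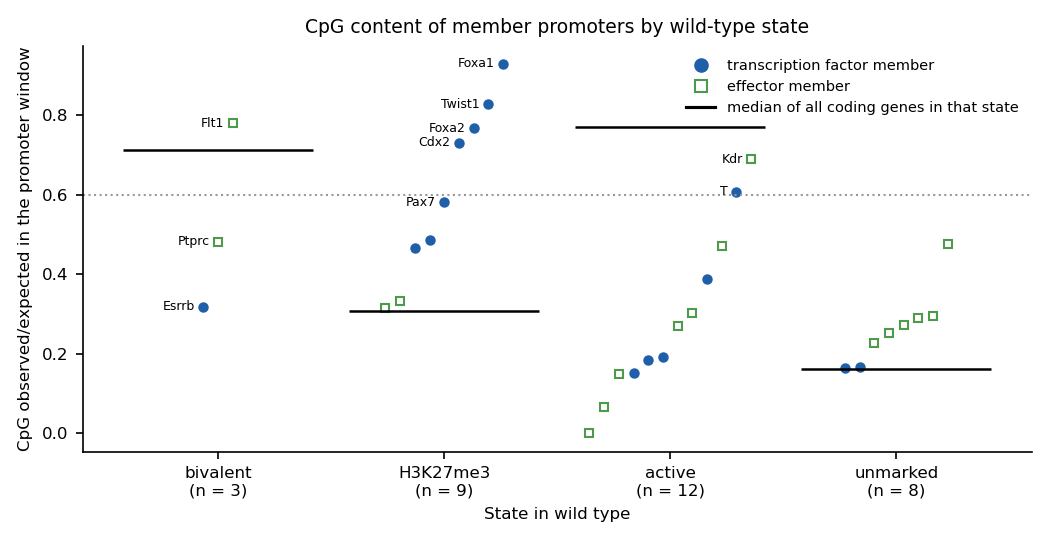
Observed over expected CpG ratio of the promoters of the 32 members with a sequence, by wild-type state, with factors and effectors marked apart and the limit of 0.6 drawn. Factors in the H3K27me3 state have a median of 0.73, and all 8 unmarked members lie below the limit.

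Between genotypes the state differed at 12 of 51 members, where it differed at 12.3% of all genes, with 7 of the 12 among the factors. H3K27me3 was present in wild type only at 3 factors and no effector (5.62% of all genes), and in Setd5+/- only at 4 effectors and no factor (3.58% of all genes). Summed over factor windows it covered 234.4 kb in wild type against 187.6 kb in Setd5+/- cells, a ratio of 0.80 beside 0.719 over all genes. The ratio over all genes includes the X, where no factor had the mark. Without chromosomes 1, 4, 15 and X the factor ratio was 0.87. All genes outside those chromosomes had 19626.6 kb in wild type against 15452.8 kb in Setd5+/- cells. H3K27me3 coverage was shorter at 12 of 15 factors, where it was shorter at 63.3% of the genes with the mark in either genotype.

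Pax7, a paired-box factor of muscle stem cells and neural crest on chromosome 4 (139737059 to 139833530), showed the largest difference among the factors. In wild type an island of 15.4 kb with 1253 reads (81.4 reads per kb, percentile 99.2) ran over its start, and a further island had 29 reads. In Setd5+/- cells no island was called in the 106.5 kb window, so the locus was unmarked. Chromosome 4 as a whole had 1.25 times the H3K27me3 coverage in Setd5+/- cells. The absence of an island does not mean the absence of reads, which the lists do not give outside islands.

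Myod1 had a wild-type island of 95 reads and Tbx5 one of 35 reads, near the middle of the list at percentiles 52.6 and 40.8. Tbx5 counted as bivalent in wild type through a separate H3K4me3 island of 35 reads that overlapped the predicted gene Gm5563 and not the H3K27me3 island. Of all windows in the H3K27me3 state in wild type, 27.3% were unmarked in Setd5+/- cells, against 2 of 13 members, Myod1 and Pax7.

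Gata4 and Gata6 were bivalent in wild type and in the H3K27me3 state in Setd5+/- cells. The H3K4me3 call at Gata4 came from 0.087 kb of an island of 25 reads at the neighbouring DNA repair gene Neil2. At Gata6 an H3K4me3 island of 1.0 kb and 42 reads lay within the H3K27me3 domain close to an annotated end of the gene, which it shares with the antisense gene Gata6os. No H3K4me3 island was called in either window in Setd5+/- cells. Esrrb, by contrast, was bivalent in both genotypes: its H3K4me3 islands of 165 and 133 reads overlapped H3K27me3 islands of 203 and 112 reads. H3K4me3 lay over the second of its listed promoters in both genotypes, and H3K27me3 began past that promoter.

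Hnf4a and Pou5f1 were active in wild type and unmarked in Setd5+/- cells, both on slight grounds. The Hnf4a call was a single H3K4me3 island of 0.4 kb and 18 reads. That of Pou5f1 was the last 0.377 kb of its flank reached by an island over Tcf19 and Cchcr1.

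At Twist1 the domain differed in shape. The wild-type island of 81.6 kb and 6184 reads, which also covered the neural factor gene Ferd3l, stood where Setd5+/- cells had islands of 5.6 kb with 179 reads and 18.6 kb with 734 reads, and the printed promoter lay in the gap between them. Coverage of the gene itself was 2.16 kb in wild type against 0.83 kb in Setd5+/- cells. At Foxa2 the number of islands went the other way, as did coverage of the window, 13.7 kb in wild type against 14.1 kb in Setd5+/- cells. Foxa2 had 2 wild-type islands of 31.8 and 15.2 kb (2974 and 1108 reads) and 1 Setd5+/- island of 44 kb and 1970 reads. The density was still lower in Setd5+/- cells, at 44.8 reads per kb against 86.9 in wild type.

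At the 12 factors with H3K27me3 in both genotypes, island reads per kb were lower in Setd5+/- cells at all 12. At Gata4 the density was 88.2 reads per kb in wild type against 40.5 in Setd5+/- cells, a log2 ratio of −1.12 with a 95% counting interval of −1.20 to −1.04. At Foxa1 it was 91.8 and 44.2, and at Tfap2c, with the smallest difference, 34.3 and 29.2 (log2 ratio −0.23, interval −0.62 to 0.16). The median log2 ratio was −0.98. Intervals are exact binomial, cover counting error only and say nothing of the spread between cultures.

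The same ratio over all 4783 islands shared by both lists on autosomes other than 1, 4 and 15 had a median of −0.19, with 69.8% lower in Setd5+/- cells. Among the 693 of these at wild-type percentile 95 or above, a class formed after the values were seen, the median was −0.78 and 99.3% were lower. The strongest wild-type islands of the 12 factors stood at percentile 96.5 or above, except that of Tfap2c at 89.5. Below percentile 50 the median was 0.12 and 32.9% were lower. Classes taken by wild-type density favour a lower ratio where that density is high, since it is the denominator, so this comparison does not show whether the factors differ from other islands. The libraries differ in reads within islands, and the part of depth in the difference was not tested. In bulk chromatin a mark carried by fewer cells and a weaker mark in every cell cannot be told apart.

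**Figure D5:**
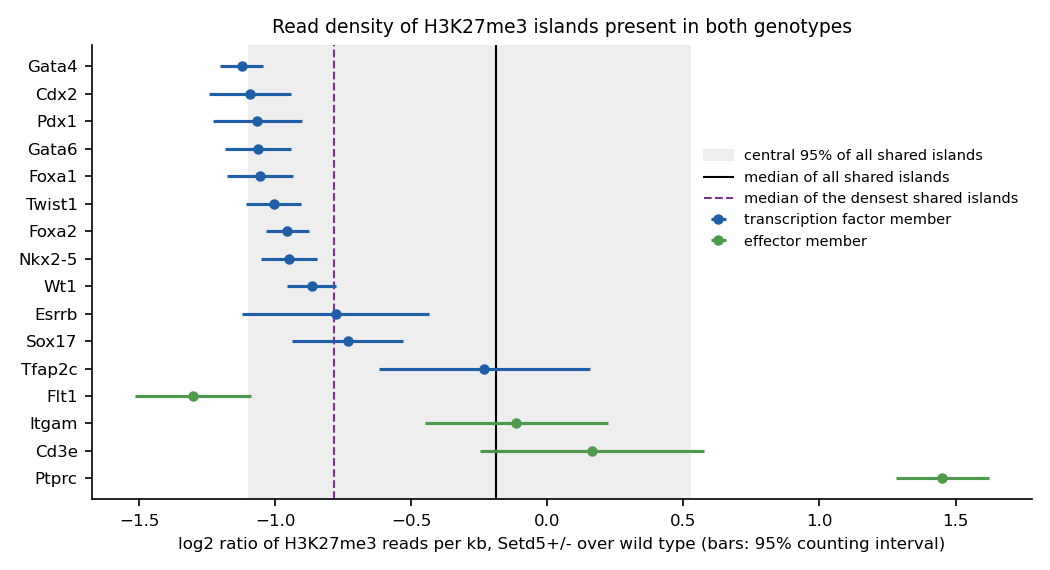
Log2 ratio of H3K27me3 island reads per kb, Setd5+/- over wild type, for the 16 members with the mark in both genotypes, with 95% exact counting intervals. The 12 factors lie between −1.12 and −0.23, Flt1 at −1.30 and Ptprc at 1.45.

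Among the effectors coverage was longer in Setd5+/- cells at 6 of 8 genes, where it was longer at 34.5% of the genes with the mark in either genotype, with summed coverage of 33.4 kb in wild type against 104.2 kb in Setd5+/- cells. Most of the Setd5+/- length was at Ptprc, which encodes the leukocyte phosphatase CD45 and lies on chromosome 1 (138062859 to 138175756). It had 13.4 kb in 4 weak islands of 51 to 132 reads in wild type and 68.4 kb in 5 islands in Setd5+/- cells, 2 of them with 1621 and 2035 reads. Its density was 22.5 and 61.6 reads per kb, a log2 ratio of 1.45 (counting interval 1.28 to 1.62), and the densest Setd5+/- island stood at percentile 99.9. H3K4me3 within the gene formed 2 islands in each genotype, of 77 and 25 reads in wild type and of 89 and 45 reads in Setd5+/- cells, and the stronger overlapped H3K27me3 in Setd5+/- only. An H3K27ac island of 37 reads was also called there in Setd5+/- cells. The chromosome had 2.38 times the H3K27me3 coverage in Setd5+/- cells, and whether that plays a part at Ptprc was not tested.

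The genes with H3K27me3 in Setd5+/- cells alone had small, weak islands. Col1a2, a chain of type I collagen, had 8.18 kb in 5 islands of 24 to 75 reads, and its H3K4me3 island of 35 reads at the start was called in wild type only. Col3a1, the type III collagen gene on chromosome 1, had 3.8 kb in 3 islands of 26 to 39 reads, beside H3K4me3 of 38 and 41 reads in the 2 genotypes. Pdgfrb, the platelet-derived growth factor receptor of pericytes, had 1 island of 37 reads. Rgs5, a pericyte signalling gene on chromosome 1, had 1 of 32 reads. The same Rgs5 window had H3K27ac of 61 reads in Setd5+/- cells, which the state rule does not use where H3K27me3 is present. Each strongest H3K27me3 island of these 4 stood between percentiles 13.8 and 68.5 of its list, far from the domains at the factors. Itgam, the CD11b integrin of myeloid cells, had 4.6 kb in wild type against 9.2 kb in Setd5+/- cells, at near equal density (25.2 and 23.3 reads per kb).

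Cd3e, a subunit of the T-cell receptor complex, had 4.6 and 3.4 kb. Flt1, a receptor for vascular endothelial growth factor (chromosome 5, 147561604 to 147726438), was the effector with a dense domain in wild type. Its wild-type H3K27me3 island at the start had 10.8 kb and 779 reads, and in Setd5+/- cells islands of 194 and 46 reads covered 8.2 kb there. The density was 72.1 and 29.3 reads per kb. H3K4me3 at the start, of 24 and 45 reads, lay inside the domain in both genotypes.

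Active states were then traced to the islands behind them. H3K4me3 was present at 24 members in wild type against 17 in Setd5+/- cells, where the shares of all genes were 67.7% and 66.3%. H3K27ac was present at 4 and 7 members, against 47.6% and 45.5%. Of the 24 members with H3K4me3 in wild type, 20 had no H3K27ac in the window, as did 11 of 17 in Setd5+/- cells, whereas 69.1% and 67.4% of all genes with H3K4me3 had H3K27ac too. The covered length of H3K4me3 at marked members ranged from 0.087 to 2.6 kb in wild type, below every neural stem cell marker. H3K4me3 at members was therefore mostly narrow and without acetylation.

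In 6 of the 24 wild-type cases the H3K4me3 lay in the flank only. The islands beside Aif1, Tyrobp and Cd4, genes of microglia and T cells, covered Prrc2a (785 reads in wild type, 790 in Setd5+/-), Nfkbid (258 and 196) and Gpr162 (179 and 125). That at Aif1 also carried H3K27ac, of 70 and 66 reads, over the same neighbour. The active call of these 3 immune genes rests on their neighbours, and none had H3K4me3 over its own span in wild type.

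Of the factors active in both genotypes, Klf1, T and Spi1 had H3K4me3 within 1 kb of an end of the gene. Klf1, the erythroid Krüppel-like factor, had H3K4me3 of 103 reads in wild type against 150 in Setd5+/- cells within 1 kb of an end of the gene, beside an island at Dnase2a of 178 and 218 reads. Brachyury (T) had 91 and 69 reads at its start, an island shared with the uncharacterised gene LOC115486424. In Setd5+/- cells that island stopped short of the gene span. Spi1, the master factor PU.1 of myeloid cells, had 45 and 37 reads at its far annotated end. In wild type a further Spi1 island of 40 reads lay in the flank. Nanog had no mark over its span but H3K4me3 of 86 and 95 reads, with H3K27ac of 50 and 43 reads on the same site, in the 5′ flank, where no other annotated gene lies under it. Nanog was the only one of the 23 factors with H3K27ac in either genotype.

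The stronger islands of active effectors at their own genes were those of a vessel, a mesenchymal and a mural gene. Kdr, the main endothelial receptor for vascular endothelial growth factor, had H3K4me3 of 155 and 146 reads over its CpG-rich start, shared with the predicted gene Gm32727. Col1a1, the other chain of type I collagen, had 111 and 126 reads near its start. Acta2, smooth muscle actin, had 94 and 102 reads. These are the 3 strongest own-gene H3K4me3 islands among the active effectors, and none of the 3 had H3K27ac over its span.

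Weaker islands were called at Tek, P2ry12 and Dcn. Tek, the angiopoietin receptor on chromosome 4, had islands of 24 and 22 reads in wild type and 1 of 31 in Setd5+/- cells. P2ry12, a microglial purinergic receptor nested in Med12l, had 25 reads in wild type and 45 and 26 in Setd5+/- cells, with H3K27ac of 37 reads in wild type only. Dcn, the proteoglycan decorin, had 26 reads in wild type and no island in Setd5+/- cells. All these wild-type H3K4me3 islands had 22 to 26 reads, among the weakest of their list.

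Pecam1, the endothelial adhesion molecule CD31 (chromosome 11, 106654213 to 106715281), carried the most acetylation of any member. H3K27ac covered 7.2 kb in wild type, with islands of 123 and 78 reads, and 10.2 kb in Setd5+/- cells, with islands of 100, 39 and 80 reads. H3K4me1, a mark of enhancers, formed 6 and 5 islands there, and H3K4me3 was 21 and 43 reads. None of its H3K27ac or H3K4me3 islands came within 1 kb of an annotated end.

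In Setd5+/- cells H3K27ac was also called at Rgs5, with 61 reads over 4.0 kb on chromosome 1, and at Flt1, with 19 reads, and at Col1a1, with 24 reads in the flank. On chromosome 1 H3K27ac covered 2.58 Mb in wild type against 6.25 Mb in Setd5+/- cells. For scale, the median H3K27ac length at the neural stem cell markers was 4.4 kb in wild type against 5.8 kb in Setd5+/- cells.

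Of all 21887 protein-coding genes 5325 were unmarked in both genotypes, a share similar to that of the members, 12 of 51. These 12 members were mostly effectors. They were the complement genes C1qa and C1qb (chromosome 4), the chemokine receptor gene Cx3cr1 and the growth factor receptor gene Csf1r of microglia, and the endothelial genes Cldn5, Cdh5 and Tie1 (the last on chromosome 4). The mural gene Tagln, the mesenchymal gene Lum, Alb, and the factors Gata1 (X chromosome) and Myf5 complete them. Both factors had CpG-poor promoters, with ratios of 0.17 at Gata1 and 0.16 at Myf5.

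Enhancer and gene body marks were scarce over all the members. H3K4me1 was present at 16 members in wild type against 9 in Setd5+/- cells, beside 53.3% and 36.1% of all genes. H3K36me3, laid down over transcribed gene bodies, was present in 3 and 4 effector windows and at no factor, against 40.7% and 42.0%. Those islands lay over neighbours: Hmgxb3 next to Csf1r, Stambpl1 next to Acta2, Pcsk7 next to Tagln and, in Setd5+/- cells, Cdc45 next to Cldn5. A second Setd5+/- island near Tagln, of 197 reads, lay over Sidt2. At Tagln 3.17 kb of the gene lay under the mark in wild type against 3.97 kb in Setd5+/- cells, and at Acta2 4.47 and 3.67 kb. Overlap alone does not assign these shared islands to the member or to its neighbour. No member had H3K36me3 confined to its own span.

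SETD5-V5 islands were present in 2 windows, Cldn5 and Acta2, against 26.4% of all genes. At Acta2 the island covered 1.27 kb of the gene and extended over Stambpl1, and at Cldn5 it lay in the flank over Cdc45. H3K36me2 was absent from all members in wild type, where 5.31% of all genes had it, and present at 3 in Setd5+/- cells, where 6.11% had it. These were Ptprc with 51.2 kb, Rgs5 with 31.2 kb and Tek with 20 kb, on chromosomes 1, 1 and 4. On chromosome 1 H3K36me2 covered 6.96 Mb in wild type against 63.1 Mb in Setd5+/- cells, and on chromosome 4 it covered 3.46 and 10.7 Mb. Whether those chromosome-wide differences account for the 3 members was not tested.

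A list of 66 further lineage genes, not members, was counted in the same way. Of 38 factors, 24 had H3K27me3 in wild type against 22 in Setd5+/- cells, of which 5 in wild type alone and 3 in Setd5+/- cells alone. Summed over those factors it covered 530.6 kb in wild type against 376.1 kb in Setd5+/- cells. Of 28 effectors, 4 and 5 had it, and their summed length, 32.5 and 14.2 kb, was shorter in Setd5+/- cells, the opposite of the member effectors. The collagen gene Col5a1 had 19 and 1.4 kb, and the Fc receptor gene Fcgr3, on chromosome 1, 5.32 kb and none. Among these factors Hand1, of heart and trophoblast, had 11.7 kb in wild type and none in Setd5+/- cells, Tbx1, of pharyngeal mesoderm, had 9.4 kb and none, and Ebf1, of B cells, had 77.9 kb and none. Pax3, the closest relative of Pax7, lies on chromosome 1 and had 94.1 and 96.5 kb.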

How the data were processed

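ChIP-seq island lists of 13 libraries were used, 1 per mark and genotype, while 3 inputs stayed out. The tools of the authors were, per the submitters' processing notes, FastQC, Bowtie2 2.2.3, GRCm38 (mm10) and SICER 1.1. Per the file headers, 5 lists (H3K36me2, H3K36me3 and SETD5-V5) had windows of 800 bp, gaps of 2400 bp and an FDR of 0.01. The 8 remaining lists name no settings and have widths in multiples of 200 bp. Whole numbers deposited with the islands were taken, from their values, as the authors' counts of reads. Input use is not given in the sources used here, nor is the library total, so depth outside islands is unknown.

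Members were matched by symbol to the 21887 protein-coding genes of RefSeq GRCm38.p6. An overlap of 1 bp or more between an island and a window counted. The gene table has no strand, so gene ends replaced starts, except where a promoter sequence gives the strand. Named genes were those whose state differed, those active in either genotype, the 5 longest, the 5 largest decreases and 5 largest increases in H3K27me3, and those with SETD5-V5 or H3K36me3 over the span. Others are named to account for every member. Members, lists and rules were chosen with earlier results of these data known, and the density classes and printed promoters after the values were seen. Python 3.11.15, numpy 2.4.6, pandas 2.3.3, scipy 1.17.1 and matplotlib 3.10.9 were used, and the overlap step was tested on simulated island lists. Alternatives changed the flank, overlap, island strength, covered length, state rules, CpG limit and chromosomes.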

Additional observations from a re-analysis of the deposited data

How the results depend on the processing

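With 9 alternative settings and 20 results, 112 of 133 values stayed close to the main ones. Single values have no direction, but some differences between genotypes did not hold. In the pairs that follow, wild type stands first. Effectors unmarked, 12 and 11 in the main setting, were 20 and 21 within 1 kb of a gene end, the opposite order, 8 and 8 without chromosomes 1, 4, 15 and X, and 12 and 12 at equal covered length. Factors active, 6 and 4, were 3 and 3 within 1 kb of an end and 4 and 4 with an overlap of 500 bp. Effectors with H3K27me3, 4 and 8, were 2 and 2 within 1 kb of an end. Counting islands within 1 kb of a gene end only moved most: H3K27me3 at factors summed to 39.6 kb in wild type against 28.6 kb in Setd5+/- cells, 6 and 5 effectors were active, 1 and 0 factors were bivalent, and the state differed at 4 factors. With no flank the factors summed to 150.9 and 120.3 kb and 2 were active in Setd5+/- cells. An overlap of 500 bp or more left 4 factors whose state differed. Factors bivalent, 4 and 1, were 1 and 1 without the weakest 25% of islands and 2 and 1 where both islands had to overlap. Without chromosomes 1, 4, 15 and X, 3 effectors differed in state and 5 had H3K27me3 in Setd5+/- cells. With a CpG limit of 0.75, 0 members without H3K27me3 in wild type were CpG-rich. The count of factors with H3K27me3 was 12 to 15 in wild type and 11 to 12 in Setd5+/- cells in every setting. Fewer genes or shorter windows enter under the chromosome and flank settings; for the others the cause was not tested. No paired analysis was possible because each group has 1 library, and for the same reason no replicate could be left out. Reads outside islands are unknown, so a weak mark and no mark differ here only by the authors' calls.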
